A study of Mus musculus with 90 samples.

Results

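The immunity-related GTPases are interferon-inducible GTP-binding proteins that mouse cells use against intracellular bacteria and protozoa. Here, 10 of the 53697 genes counted in YUMM2.1 and CT26 tumour cells were taken by their symbols: Irgm1, Irgm2, Igtp, Iigp1, Tgtp1, Tgtp2, Ifi47, Gm12250, F830016B08Rik and the giant inducible GTPase Gm4070. The list was chosen by family membership with the rise of these genes over control cells under IFNγ in view, so that rise is given as a description and is not a finding. Their levels in every group were known when the list was made, so that adjusted p-values in the other comparisons are not independent evidence either. YUMM2.1 is a mouse melanoma line and CT26 a mouse colon carcinoma line. In each line 15 groups of 3 samples were measured by 3′ digital gene expression, which counts reads near the 3′ ends of transcripts. Control cells received bovine serum albumin without IFNγ (0 IU/mL) and were harvested at 0, 1, 2 or 3 weeks. Naïve cells received 50 IU/mL IFNγ for 2 h or 24 h. Chronically exposed cells were grown with the same dose over 1, 2 or 3 weeks. They were then harvested without fresh IFNγ, or 2 h or 24 h after rechallenge with fresh IFNγ. Each line is a single established cell line in culture, and all groups were replated for the last 48 h. The samples of a group are triplicates, and the study describes its replicates in general as independent and biological, without detail on these cultures. The p-values measure the spread between these samples.

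Interferon γ signals through its receptor and the kinases Jak1 and Jak2, and its target genes are switched on at GAS elements and, through factors such as Irf1, at interferon-stimulated response elements (ISRE). The GTPases made in response fall into regulators and effectors. Irgm1, Irgm2 and Igtp (Irgm3) are regulators that sit on the membranes of the cell itself and hold the effectors in their inactive state there. Iigp1 (Irga6), Tgtp1 and Tgtp2 (Irgb6), Ifi47 (Irgd), Gm12250 (Irgb10) and F830016B08Rik (Ifgga4) belong to the effector branch, whose best-known members coat the vacuoles of parasites and help to rupture them. Gm4070 belongs to the very large inducible GTPases (GVIN), whose function is poorly understood.

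The total count of a sample spanned 274719 to 3161276 among YUMM2.1 samples and 295157 to 2205285 among those of CT26. In 3 samples the total was below 25% of the median of their line: replicate 3 of the 3-week group without rechallenge in both lines, and replicate 3 of the 1-week group without rechallenge in CT26. Levels are in CPM, counts scaled to a common library total after TMM normalisation, and differences are log2 differences from an edgeR quasi-likelihood fit, with p-values adjusted over all genes tested, a threshold of 0.05, and 3 samples per group throughout. All 10 genes passed the filter on low counts, with 9589 genes tested for YUMM2.1 and 8516 for CT26. The 7 melanocyte markers summed to 17.9 to 32.9 CPM in YUMM2.1 controls and 16.3 to 58.5 CPM under IFNγ. Sox10 carried nearly all of it, with 2007 reads over the 45 samples against 144 for Mitf, 56 for Dct, 19 for Pmel, 15 for Tyr, 1 for Mlana and 0 for Tyrp1. CT26 had 0 reads of Sox10 but as many of Mitf (147) and more of Dct (127). The 7 colon epithelium markers summed to 58.3 to 77.9 CPM in CT26 controls and 42.3 to 123 CPM under IFNγ, nearly all from Krt20 (3187 reads) and Krt18 (945), with Epcam, Cdh1 and Vil1 at 0 in every sample. Among the leukocyte markers, Adgre1 and Cd3e were at 0 in every sample of both lines, and the summed level of the list was at most 24.8 CPM among YUMM2.1 samples and 15.4 CPM among those of CT26. The part of other cells in the results was not tested.

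Of the 10 genes, 7 lie on chromosome 11 in 2 stretches (mm10). Irgm1 (chr11:48861968-48871683), Tgtp1 (chr11:48985327-48994172), Tgtp2 (chr11:49057194-49064206) and Ifi47 (chr11:49076587-49096974) form the first stretch. Gm12250 (chr11:58187739-58189012), Igtp (chr11:58199556-58207591) and Irgm2 (chr11:58199618-58222782) form the second. In the GENCODE M21 annotation, which gave these spans, that of Igtp overlaps that of Irgm2 on the same strand. The RefSeq start sites used below lie elsewhere for some genes, Irgm2 and Gm12250 among them. Gm12250 is listed as a processed pseudogene in the GENCODE M21 annotation and as protein-coding in RefSeq. Promoter windows from RefSeq (GRCm38.p6) were searched for 7 of the 10 genes, all 7 on chromosome 11. Iigp1, F830016B08Rik and Gm4070 were not searched, so the counts of elements say nothing about them. The 100 bases before the start site are printed, 5′ to 3′ on the strand of the gene, for the 6 in which letters of either interferon element were found. Ifi47 had neither element and is not printed, although its level moved closely with the others. Over the 15 group means it correlated with the mean of the other members at 0.998 in YUMM2.1 and 0.990 in CT26 (Pearson). Capitals mark the core of the ISRE, which is GAAA, any 2 bases and GAAA again, and the GAS, which is TTC, any 3 bases and GAA, both searched on either strand.
Igtp, chr11:58199456-58199555, plus strand: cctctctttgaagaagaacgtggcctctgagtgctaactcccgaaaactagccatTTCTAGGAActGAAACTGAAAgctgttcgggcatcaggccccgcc
Irgm2, chr11:58214877-58214976, plus strand: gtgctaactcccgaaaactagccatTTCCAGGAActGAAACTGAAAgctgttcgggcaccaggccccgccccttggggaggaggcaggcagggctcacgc
Tgtp1, chr11:48992247-48992346, minus strand: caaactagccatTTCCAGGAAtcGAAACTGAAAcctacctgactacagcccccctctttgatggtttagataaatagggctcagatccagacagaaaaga
Tgtp2, chr11:49064213-49064312, minus strand: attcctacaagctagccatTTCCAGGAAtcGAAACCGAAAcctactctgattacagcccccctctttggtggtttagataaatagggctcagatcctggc
Irgm1, chr11:48871421-48871520, minus strand: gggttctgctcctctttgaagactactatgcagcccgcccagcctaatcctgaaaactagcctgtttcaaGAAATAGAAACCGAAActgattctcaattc
Gm12250, chr11:58183743-58183842, plus strand: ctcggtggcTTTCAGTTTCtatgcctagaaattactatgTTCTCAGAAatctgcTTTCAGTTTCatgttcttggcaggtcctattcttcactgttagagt

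In Igtp, Irgm2, Tgtp1 and Tgtp2 the GAS letters stood directly ahead of the ISRE letters with the same spacing, with 2 bases between the pair of elements, so that the same combined run was present in each of them. It began 45 bases before the start of Igtp, 75 before Irgm2, 88 before Tgtp1 and 81 before Tgtp2. Within the 250 bases before the start, the ISRE letters were found in 6 of the 7 genes and in 2.98% of all 32851 RefSeq windows, and the GAS letters in 5 of the 7 and in 7.02% of all windows. The combined run, which was put together after these sequences had been seen, occurred in 5 windows of 32851 (0.0152%): the 4 named here and Gm12185, another immunity-related GTPase gene. The annotated span of Gm12185, on the minus strand, ends at chr11:48992226, beside the printed Tgtp1 window. Its run may therefore be the Tgtp1 site counted again, which was not checked. Irgm1 carried a pair of overlapping ISRE runs from 30 and from 24 bases before the start and no GAS run in the window. Gm12250 carried its ISRE runs on the other strand, 91 and 46 bases before the start, and Ifi47 had neither. A match is a description of letters, and binding was not measured.

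Tgtp1 and Tgtp2 could not be told apart by these counts. The last 500 bases of their transcripts were identical in the GENCODE M21 sequences (100% for the most alike pair of transcripts). Among 44 YUMM2.1 samples with at least 20 reads over both genes, the share given to Tgtp1 ranged from 0% to 100%. In the naïve YUMM2.1 controls, Tgtp1 was at 27.6, 0 and 0 CPM and Tgtp2 at 5.95, 36.3 and 37.7 CPM in the same 3 samples, while their sum was 33.6, 36.3 and 37.7 CPM. The sum is therefore used below as Tgtp, beside the counts over 10 genes, which keep both. Gm4070 had the same difficulty with Gvin1 (100% over the last 500 bases): among 30 YUMM2.1 samples with at least 20 reads over both, its share ranged from 0% to 100%, whereas in CT26 it never fell below 85.1%.

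**Figure D1:**
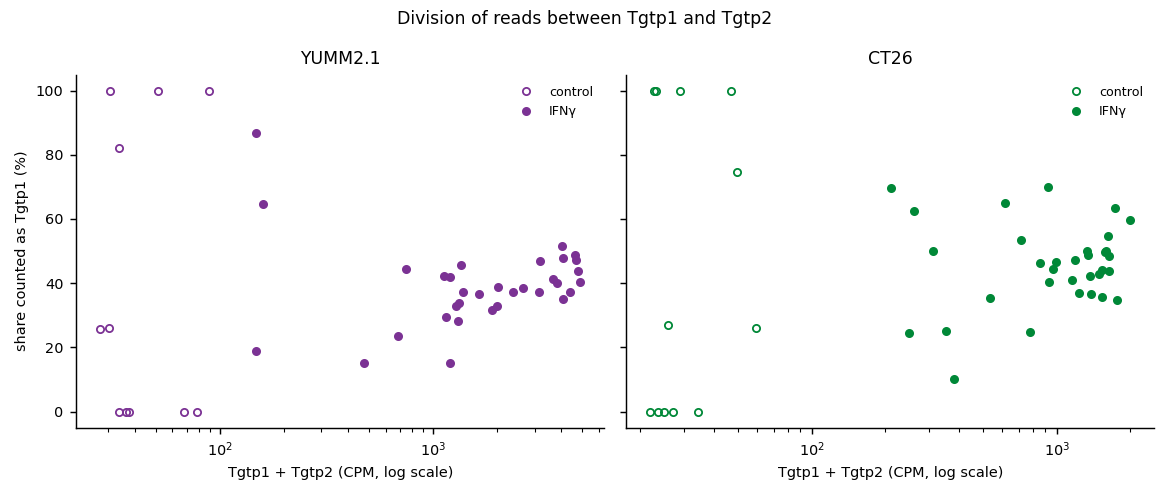
Share of the reads of Tgtp1 and Tgtp2 that was counted as Tgtp1 (y axis, percent) against the sum of both genes (x axis, CPM, log scale), for samples with at least 20 reads over both. Open circles are control samples and filled circles IFNγ samples; most control samples lie at 0% or 100%, and the YUMM2.1 samples with the highest sums lie near the middle.

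Control cells of both lines already expressed Irgm1. It stood at 51.4, 56.9 and 58.8 CPM in naïve YUMM2.1 controls and at 87.8, 74.4 and 83.0 CPM in CT26, so that every CT26 sample lay above every YUMM2.1 sample. Ifi47 was at 3.25, 3.63 and 1.28 CPM in YUMM2.1 and at 15.5, 9.30 and 8.83 CPM in CT26, again without overlap. These were the 2 genes of 10 called between the lines, both higher in CT26, where 20.1% of all genes tested were called higher. The count is near that share, so it is not read as a trait of these genes. The differences were 0.74 ± 0.16 (SE, adjusted p = 5.73e-05) for Irgm1 and 2.22 ± 0.45 (adjusted p = 2.18e-05) for Ifi47. Gm12250 and F830016B08Rik had 1 and 2 reads over the 3 YUMM2.1 controls, and 2 and 1 in CT26, which is at the limit of what these libraries could detect. Between the 0-week and 3-week controls no gene of the 10 was called in YUMM2.1 (0.511% of all genes), with 1 at an unadjusted p below 0.05 and 0 by DESeq2. In CT26 1 was called higher (0.564% of all genes), Tgtp1, whose reads are shared with Tgtp2. The Tgtp sum, however, was higher at 3 weeks in both lines, from 33.6, 36.3 and 37.7 to 88.9, 78.5 and 67.7 CPM in YUMM2.1 (1.13 ± 0.20, adjusted p = 0.00119) and from 26.0, 23.6 and 27.1 to 59.2, 46.8 and 49.7 CPM in CT26 (1.01 ± 0.19, adjusted p = 0.00136).

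Naïve cells raised most of the family within 2 h. In YUMM2.1, 6 of the 10 genes passed the threshold against the control at 2 h, where 0.24% of all genes were called higher, and 10 of 10 at 24 h, where 0.855% were. In CT26 the counts were 9 of 10 at 2 h (0.235% of all genes) and 9 of 10 at 24 h (1.77%). These contrasts are the ones in view when the genes were listed, and nothing is read from the counts. The summed level of the 10 genes, to which Tgtp and Irgm1 contributed most reads, was 102, 111 and 107 CPM in YUMM2.1 controls, 1026, 900 and 902 CPM at 2 h and 2663, 2823 and 2585 CPM at 24 h. In CT26 it was 145, 125 and 132 CPM, then 861, 768 and 889 CPM, then 2275, 1966 and 1948 CPM. No samples of the 3 conditions overlapped in either line.

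Between 2 h and 24 h in naïve cells, no call was made for the regulators Irgm1 and Irgm2 in either line, while the regulator Igtp and most effectors rose further (a comparison chosen after the values were seen). Irgm1 in YUMM2.1 was at 521, 398 and 416 CPM at 2 h and at 436, 488 and 508 CPM at 24 h, and the samples overlapped (0.10 ± 0.13). Irgm2 was at 68.0, 65.3 and 55.2 CPM and then at 60.2, 47.8 and 63.1 CPM (−0.13 ± 0.19). In CT26 Irgm1 was at 426, 390 and 429 CPM and then at 534, 532 and 508 CPM, without overlap though not called (0.34 ± 0.11, adjusted p = 0.105), and Irgm2 differed by 0.30 ± 0.36. Igtp, the other regulator, rose further in both lines, by 0.77 ± 0.16 in YUMM2.1 (adjusted p = 0.00496) and 1.16 ± 0.15 in CT26 (adjusted p = 2.51e-07).

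Among the effectors, Tgtp rose from 147, 149 and 160 CPM at 2 h to 1327, 1378 and 1156 CPM at 24 h in YUMM2.1 (3.08 ± 0.17, adjusted p = 1.07e-18), and from 249, 211 and 261 to 1152, 922 and 927 CPM in CT26 (2.05 ± 0.13, adjusted p = 5.71e-16). Iigp1 rose from 65.3, 85.6 and 68.5 to 358, 390 and 393 CPM in YUMM2.1 (2.39 ± 0.17) and from 18.5, 27.1 and 23.2 to 151, 140 and 130 CPM in CT26 (2.60 ± 0.22). The groups did not overlap for either gene in either line. Ifi47 rose by 1.78 ± 0.19 and 1.26 ± 0.20, and F830016B08Rik by 1.89 ± 0.43 and 1.41 ± 0.35, in YUMM2.1 and CT26. Gm12250 rose by 2.21 ± 0.31 in YUMM2.1. In CT26 it had 0 reads over the 3 samples at 2 h and 15 at 24 h, at 17.7, 1.68 and 3.68 CPM, which is at least 9.47-fold higher against a floor of 3 reads over the group. In all, 6 of 10 genes in YUMM2.1 and 8 of 10 in CT26 were higher at 24 h than at 2 h, against 0.553% and 1.33% of all genes, and 0 were lower. Besides Irgm1 and Irgm2, those not called were Tgtp1 and Gm4070 in YUMM2.1.

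**Figure D2:**
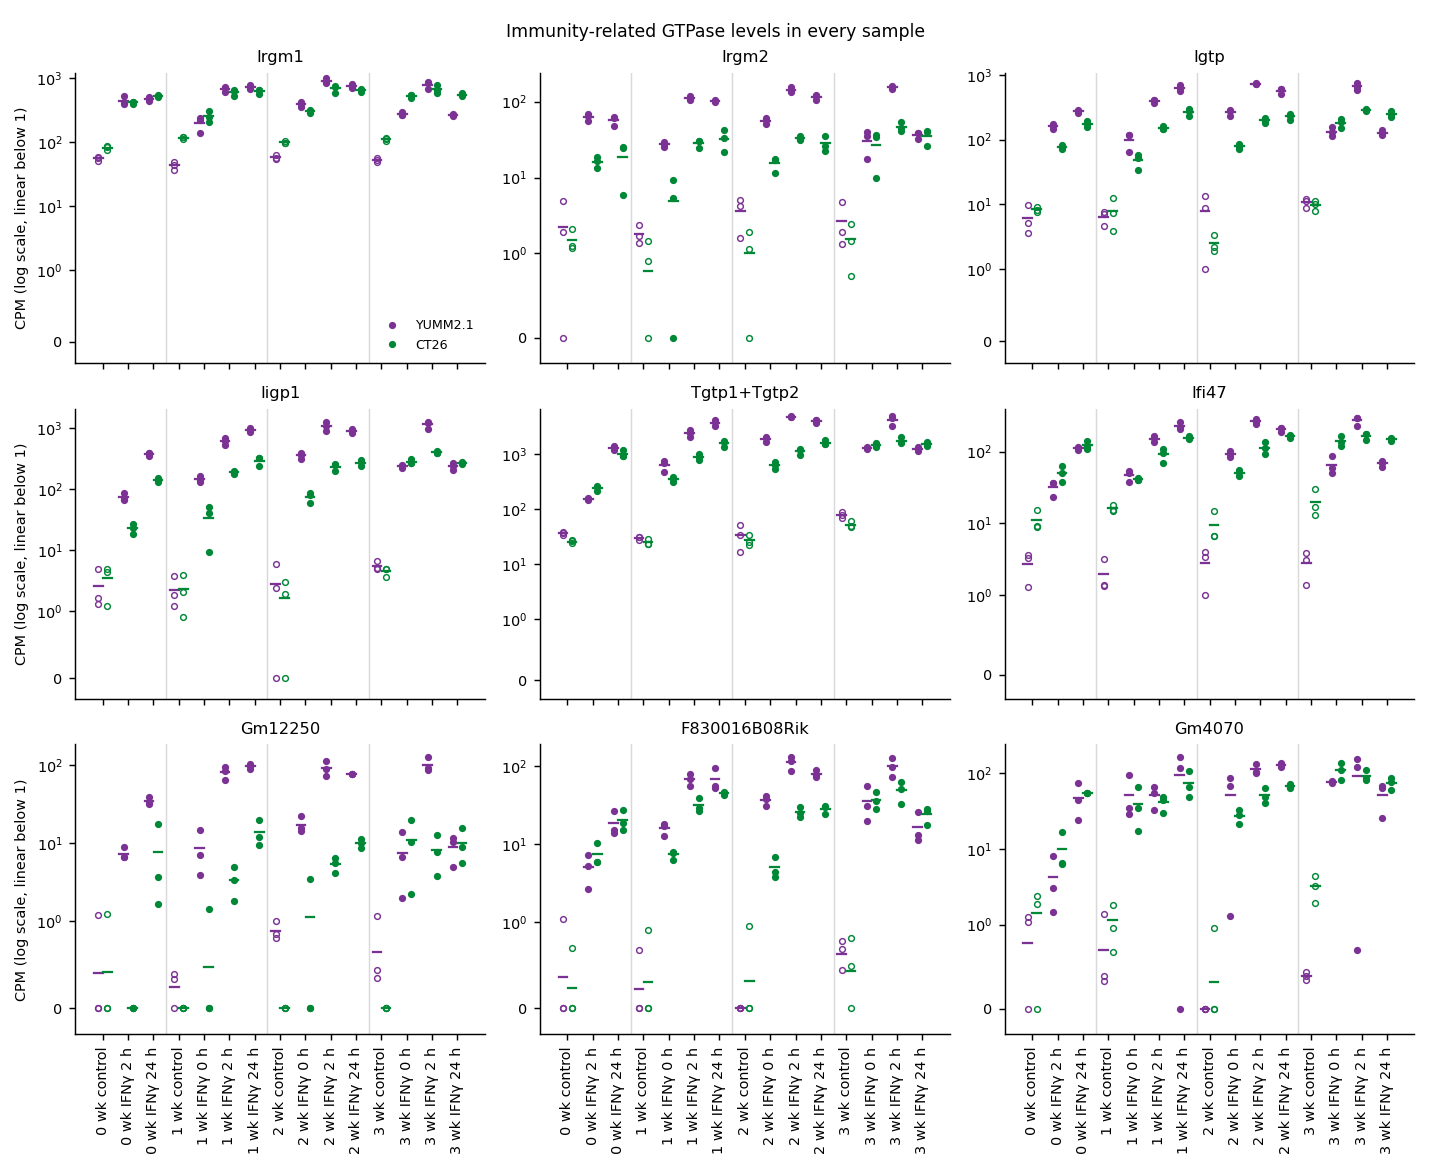
Level of each gene in every sample (y axis, CPM, log scale above 1 and linear below), with the 15 groups along the x axis and Tgtp1 and Tgtp2 summed. Points are samples (open for control, filled for IFNγ), short bars are means of 3 samples, purple is YUMM2.1 and green CT26; every Irgm1 control sample lies above 37 CPM, and Gm12250 in CT26 stays below 20 CPM in every sample.

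Chronically exposed cells stood above same-age controls at every week. In YUMM2.1, 10 of 10 genes were called higher at 1, 2 and 3 weeks, where 0.657%, 0.897% and 0.72% of all genes were. In CT26 it was 7, 9 and 10 of 10, against 0.658%, 0.892% and 3.44% of all genes. As for the naïve response, these differences from control are a description. Irgm1 showed the smallest fold over control at 3 weeks, 2.40 ± 0.15 in YUMM2.1 and 2.24 ± 0.12 in CT26. Iigp1 stood 5.43 ± 0.23 and 5.96 ± 0.27 above its controls. Gm12250, with 0 reads in the 3-week CT26 controls and 20 in the chronically exposed cells, was at least 15.2-fold higher there. Neither the naïve 24 h response nor the 3-week response differed between the lines by the test of the difference itself for any of the 10 genes (0 called each, against 0.087% and 0.106% of all genes, with 3 and 2 of the 10 at an unadjusted p below 0.05 and 1 each by DESeq2). The standard errors of these differences ran from 0.20 for Irgm1 to 1.99 for Gm4070, so that changes of several-fold in the scarce genes would have been missed.

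The lines parted between the second and the third week. In CT26 the summed level rose from 1131, 1300 and 1106 CPM at 2 weeks to 2952, 2661 and 2612 CPM at 3 weeks, whereas in YUMM2.1 it went from 3191, 3374 and 2799 CPM to 2215, 2157 and 2052 CPM. The groups did not overlap in either line, and the direction was opposite. In CT26, 7 of the 10 genes were called higher at 3 weeks than at 2 weeks, against 1.59% of all genes. Iigp1 went from 58.5, 79.0 and 86.5 to 314, 269 and 268 CPM (1.92 ± 0.18, adjusted p = 3.13e-10), and F830016B08Rik from 4.43, 3.76 and 6.87 to 35.6, 27.9 and 46.4 CPM (2.70 ± 0.35, adjusted p = 8.09e-07). Irgm1 rose least among those called (0.79 ± 0.11, adjusted p = 3.94e-06). Irgm2, Tgtp1 and Gm12250 were the genes not called, and the Tgtp sum was (1.20 ± 0.13, adjusted p = 6.29e-09).

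In YUMM2.1, 1 of 10 genes was called between 2 and 3 weeks, Igtp, which was lower at 3 weeks (0.073% of all genes were called lower). Igtp was at 276, 287 and 235 CPM at 2 weeks and at 154, 129 and 115 CPM at 3 weeks (−0.95 ± 0.17, adjusted p = 0.00587). The call was lost without the samples of low depth and when only these 2 groups were fitted, at −0.89 and −0.93, and also without replicate 1 or replicate 2 of every group, at −1.07 and −0.85. Gm12250 was at 22.0, 14.3 and 15.4 CPM and then at 6.67, 1.99 and 13.9 CPM, with adjusted p = 0.165. The test of the difference between the lines, added after these values were seen, called 7 of 10 genes (0.406% of all genes were called in that direction), each with the more positive change in CT26. Gm12250 differed by 4.07 ± 0.88 (adjusted p = 0.00732), but in CT26 at 2 weeks it had 6 reads, all in replicate 3, and 0 in replicates 1 and 2, so that the size of this difference is uncertain. Among the others called, F830016B08Rik differed by 2.98 ± 0.51 and Iigp1 by 2.58 ± 0.26 (adjusted p = 6.79e-05 and 3.2e-12), and Irgm1 was the smallest at 1.33 ± 0.19 (adjusted p = 5.1e-07).

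After 1 week of exposure, both lines responded to rechallenge. In YUMM2.1, 7 of 10 genes rose at 2 h and 9 at 24 h over the cells without rechallenge, where 0.501% and 1.12% of all genes did. In CT26 the counts were 7 and 9, against 0.364% and 0.928%. At 2 weeks they were 7 and 7 in YUMM2.1 (0.417% and 0.532%) and 5 and 7 in CT26 (0.294% and 0.599%). At 1 week, Gm12250 went from 7.03, 3.85 and 14.8 CPM to 84.2, 94.1 and 63.5 CPM within 2 h in YUMM2.1 (3.59 ± 0.31, adjusted p = 8.65e-12), the largest change of the 10 genes in that comparison. Irgm1 rose by 1.71 ± 0.13 in YUMM2.1 and 1.23 ± 0.11 in CT26. Gm4070 was not called at 2 h in either line at 1 or 2 weeks, with YUMM2.1 differences of 0.29 ± 0.74 and 1.13 ± 0.67 and CT26 differences of 0.23 ± 0.33 and 0.86 ± 0.29. Leaving out replicate 1 of every group lowered the CT26 count at 2 h after 1 week from 7 to 3.

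At 3 weeks the rechallenge response of YUMM2.1 was brief. At 2 h, 7 of 10 genes were higher than without rechallenge (0.876% of all genes). Iigp1 was at 238, 227 and 250 CPM without rechallenge, at 1243, 976 and 1292 CPM after 2 h and at 265, 240 and 204 CPM after 24 h. Igtp went from 154, 129 and 115 CPM to 653, 576 and 759 CPM and back to 118, 125 and 140 CPM. For both genes the 2 h samples lay above all others and the 24 h samples overlapped those without rechallenge. The 2 h rise was 2.30 ± 0.16 for Iigp1 (adjusted p = 7.68e-15), 2.27 ± 0.17 for Igtp (adjusted p = 1.45e-13), 1.69 ± 0.16 for Tgtp (adjusted p = 3.3e-11) and 4.09 ± 0.34 for Gm12250 (adjusted p = 1.61e-12), which moved from 6.67, 1.99 and 13.9 to 126, 85.5 and 90.9 CPM. The 3 genes not called were Tgtp1, Tgtp2 and Gm4070.

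Irgm1, Irgm2, Ifi47 and F830016B08Rik were also higher at 2 h in YUMM2.1. At 3 weeks, Irgm1 went from 299, 265 and 261 CPM to 833, 669 and 855 CPM at 2 h (1.50 ± 0.13) and stood at 278, 256 and 268 CPM at 24 h. Ifi47 went from 87.9, 50.6 and 59.1 to 296, 229 and 298 CPM (1.99 ± 0.18) and then stood at 74.8, 69.9 and 60.5 CPM. F830016B08Rik went from 30.9, 19.9 and 55.7 to 97.3, 73.9 and 129 CPM (1.70 ± 0.30). In these 3 genes the 2 h samples lay above all samples without rechallenge. Irgm2 went from 40.0, 34.7 and 17.4 to 162, 147 and 153 CPM (2.15 ± 0.21), again without overlap. Gm4070, the GVIN gene, was at 78.2, 74.5 and 76.5 CPM without rechallenge and at 0.7, 122 and 155 CPM at 2 h, and Gvin1 was at 140, 97.0 and 0 CPM in the same 3 samples at 2 h. The sample with hardly any Gm4070 thus had the most Gvin1, and the sum of both genes differed by 0.92 ± 0.27 without a call. In CT26 the same comparison gave 0.36 ± 0.11 for Irgm1, 0.20 ± 0.18 for Ifi47, 0.53 ± 0.27 for F830016B08Rik and −0.18 ± 0.27 for Gm4070, none of them called.

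By 24 h no gene of the 10 differed from the cells without rechallenge in YUMM2.1 by edgeR (0% of all genes were called), with 1 at an unadjusted p below 0.05 and 0 by DESeq2. The differences were −0.01 ± 0.16 for Iigp1, −0.09 ± 0.18 for Igtp, −0.05 ± 0.14 for Irgm1 and −0.08 ± 0.15 for Tgtp. Compared directly, and chosen after the values were seen, 8 of the 10 genes were lower at 24 h than at 2 h (1.14% of all genes), with −2.31 ± 0.15 for Iigp1 (adjusted p = 1.63e-15) and −3.49 ± 0.28 for Gm12250 (adjusted p = 5.33e-13). Tgtp1 and Gm4070 were the exceptions, and the sum of Gm4070 and Gvin1 was lower (−1.49 ± 0.26, adjusted p = 0.000269). At 1 and 2 weeks the summed level at 24 h had been 6571 ± 741 and 6758 ± 122 CPM (SD), against 2029 ± 107 CPM at 3 weeks.

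**Figure D3:**
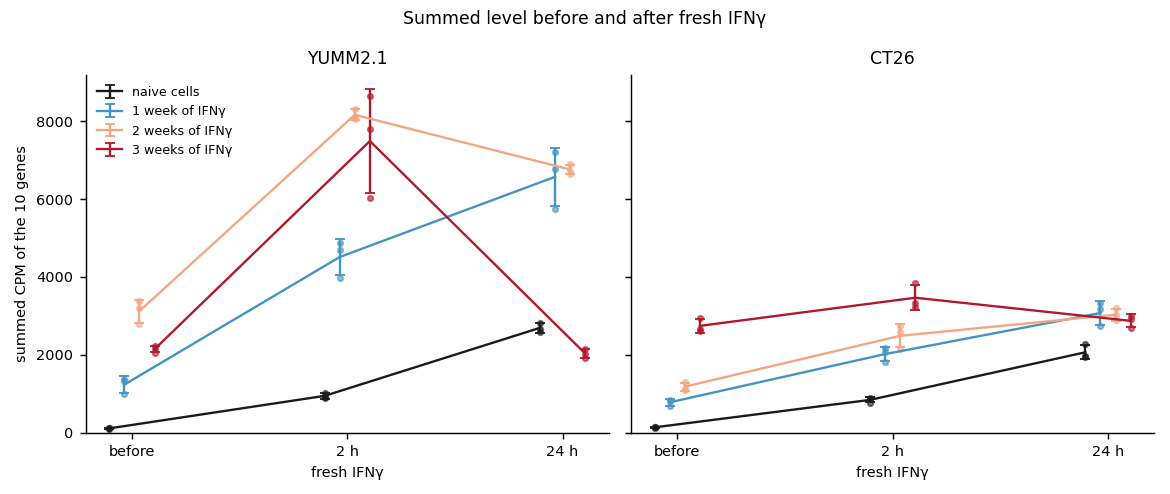
Summed CPM of the 10 genes (y axis) before, 2 h after and 24 h after fresh IFNγ, for naïve cells and for cells exposed for 1, 2 or 3 weeks (colours). Points are samples, lines join means and bars are SD of 3 samples; in YUMM2.1 the 3-week line rises to 7491 CPM and returns to 2029 CPM, and in CT26 the 3-week line stays between 2742 and 3464 CPM.

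In CT26 at 3 weeks no gene of the 10 was called at 2 h or at 24 h of rechallenge (0.0117% and 0% of all genes were called higher). The single gene called at 2 h was the colon epithelium marker Krt20 (1.24 ± 0.17, adjusted p = 4.69e-05), and 1 colon marker was called lower at 24 h than at 2 h. Their part in the result was not tested. At an unadjusted p below 0.05 there were 3 genes at 2 h and 1 at 24 h, and DESeq2 called 1 and 0. The summed level was 2952, 2661 and 2612 CPM without rechallenge, 3340, 3219 and 3833 CPM at 2 h and 2920, 3003 and 2688 CPM at 24 h, so that the 2 h samples lay above the others by a small margin. Between 24 h and 2 h of rechallenge, a comparison chosen after the values were seen, 0 of the 10 genes were called by edgeR (0.0352% of all genes), with 3 at an unadjusted p below 0.05 and 1 by DESeq2. Igtp was nearest to a call at 2 h, at 188, 206 and 149 CPM and then 294, 287 and 276 CPM (0.63 ± 0.14, adjusted p = 0.0857). Iigp1 differed by 0.51 ± 0.17 (adjusted p = 0.42) and Gm12250 by −0.10 ± 0.72. The test of the difference between lines, also added after the values were seen, called 5 of 10 genes with a smaller 2 h rise in CT26 (0.174% of all genes): Iigp1 (−1.79 ± 0.24, adjusted p = 5.4e-07), Igtp (−1.63 ± 0.24), Irgm1 (−1.14 ± 0.18), Ifi47 (−1.77 ± 0.27) and Gm12250 (−4.08 ± 0.75, adjusted p = 0.00074). The Tgtp sum differed too (−1.42 ± 0.22, adjusted p = 9.04e-06).

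Set against naïve cells at the same hour, chronically exposed cells had higher levels at 2 h. All 10 genes were called higher at 2 h in the 3-week rechallenged cells of both lines (5.04% of all genes in YUMM2.1 and 4.29% in CT26). In YUMM2.1 the difference was 4.77 ± 0.18 for Tgtp and 4.01 ± 0.17 for Iigp1, and 0.82 ± 0.13 for Irgm1. In CT26 it was 2.85 ± 0.14, 4.15 ± 0.20 and 0.69 ± 0.11 for the same genes. These are differences in level and do not measure the response to rechallenge, because the 3-week cells started higher. Before rechallenge the mean summed level of YUMM2.1 was already 2142 CPM, whereas naïve cells reached 943 CPM at 2 h. For CT26 the corresponding means were 2742 and 839 CPM. The compared cells also differ in weeks of culture, and the part of culture time was not tested at either hour. At 24 h the 2 lines differed in what was called: 5 of 10 genes were lower than in naïve cells in YUMM2.1 (0.584% of all genes) and 2 were higher in CT26 (0.481%). In the same YUMM2.1 comparison Cd68, the only leukocyte marker with enough reads to be tested, was called higher by 2.52, and its part in the result was not tested. In YUMM2.1 Gm12250 was at 31.2, 33.6 and 38.7 CPM in naïve cells and at 10.4, 4.95 and 11.4 CPM at 3 weeks (−1.97 ± 0.31, adjusted p = 5.3e-05), followed by Igtp (−1.11 ± 0.17), Irgm1 (−0.84 ± 0.13), Ifi47 (−0.71 ± 0.17) and Iigp1 (−0.69 ± 0.15). Tgtp was at 1287 ± 116 CPM (SD) in naïve cells and 1215 ± 94.7 CPM at 3 weeks (−0.08 ± 0.15). The 2 genes higher in CT26 were Iigp1 (0.96 ± 0.18, adjusted p = 0.00161) and Igtp (0.52 ± 0.14, adjusted p = 0.0355). Leaving out a replicate number gave 2 or 3 calls in YUMM2.1 and 0 to 2 in CT26, and whether the lines differ at 24 h was not tested.

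Relative to its own starting point, the response at 24 h was smaller at 3 weeks than in naïve cells for most of the genes. At 2 h this was called for fewer genes in YUMM2.1 than in CT26. At 24 h the 3-week response minus the naïve response was negative for 9 of 10 genes in YUMM2.1 (0.615% of all genes) and 9 of 10 in CT26 (1.09%), with −7.43 ± 0.35 and −5.40 ± 0.36 for Iigp1 and −3.16 ± 0.20 and −2.60 ± 0.16 for Irgm1. Gm4070 was not called in YUMM2.1 and Gm12250 was not called in CT26. At 2 h it was 4 of 10 in YUMM2.1 (0.073% of all genes), namely the 3 regulators and Iigp1, and 8 of 10 in CT26 (0.2%). For Tgtp the 2 h responses in YUMM2.1 were 2.09 ± 0.20 in naïve cells and 1.69 ± 0.16 at 3 weeks, with a difference of −0.39 ± 0.25 (adjusted p = 0.829), whereas in CT26 they were 3.23 ± 0.17 and 0.28 ± 0.13 (−2.95 ± 0.21, adjusted p = 1.39e-13). Each difference starts from cells that already stood far above control, and the naïve part of it was in view when the genes were listed. Its sign is therefore a description and not a finding. For Gm12250 and F830016B08Rik the naïve controls held 1 or 2 reads over the group, so that the size of these differences depends on how the fit treats such counts. Without replicate 1 of every group the YUMM2.1 count at 2 h was 0, and without each replicate number in turn the CT26 count was 4 or 5.

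**Figure D4:**
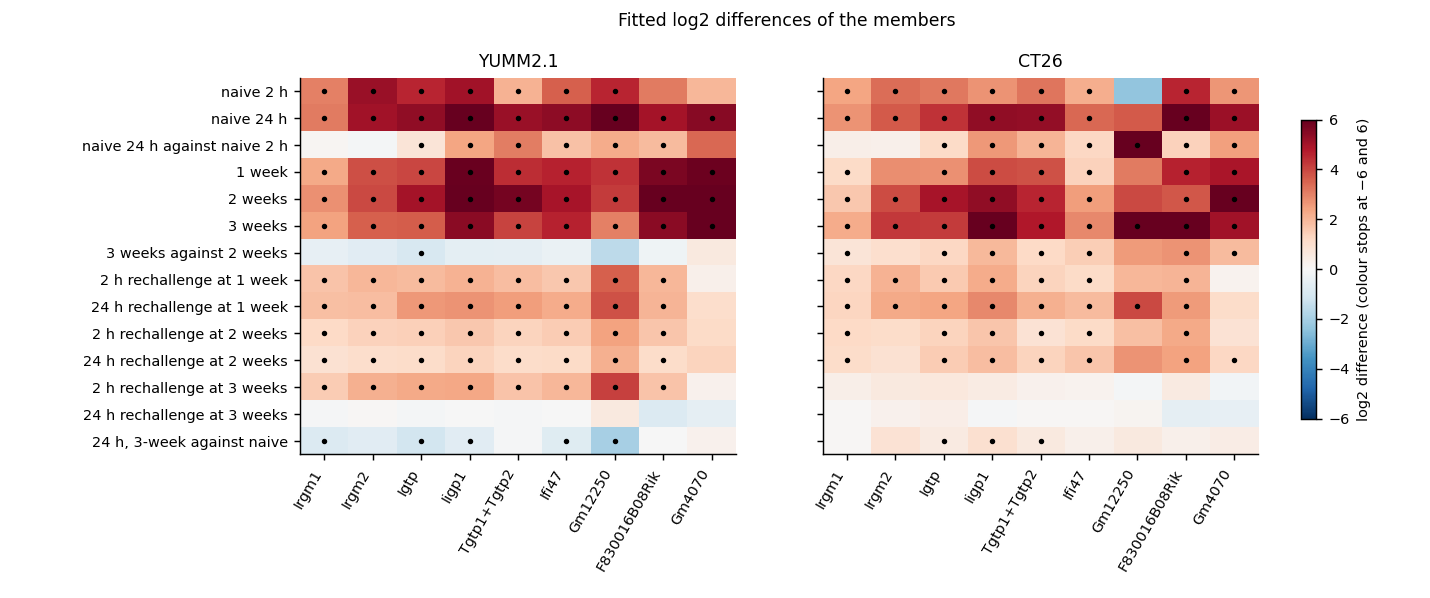
Fitted log2 differences (colour, from −6 in blue to 6 in red) of the genes (columns, Tgtp1 and Tgtp2 summed) in 14 comparisons (rows) in YUMM2.1 and CT26, with a dot where the adjusted p was below 0.05. The rows for rechallenge at 3 weeks carry dots at 2 h in YUMM2.1 and none in CT26; Gm12250 in CT26 had 0 reads in naïve cells at 2 h and in the 1-week, 2-week and 3-week controls, and its colours in the rows that use those groups are no measure of size.

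In the order of the 15 groups by summed level, the 2 h rechallenge at 2 weeks (8165 ± 140 CPM, SD) and at 3 weeks (7491 ± 1345 CPM) stood highest in YUMM2.1 and overlapped each other. They were followed by the 24 h rechallenge at 2 weeks and at 1 week, the 2 h rechallenge at 1 week, and then the 2-week cells without rechallenge, whose samples overlapped those of naïve cells at 24 h. In CT26 the first 8 groups each overlapped the next, from 3464 ± 325 CPM for the 2 h rechallenge at 3 weeks down to 2016 ± 176 CPM for the 2 h rechallenge at 1 week. The lowest IFNγ group was the naïve 2 h group in YUMM2.1 (943 ± 72.5 CPM) and the 1-week group without rechallenge in CT26 (776 ± 88.3 CPM), and every control group lay below them without overlap.

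Genes outside the list with the most similar pattern over the 15 group means, by Pearson correlation with the mean log2 level of the 10 genes, included Gbp7 (0.994), Gm12185, Gm4951, Gbp4 and Gm4841 in YUMM2.1 and Gbp7 (0.994), Gm4951, Gbp2b and Gbp2 in CT26. The points share libraries and conditions, and these values are descriptions. Spearman correlation gave 3 of the same 5 genes in YUMM2.1 and 2 of 5 in CT26. Gbp2, Gbp4 and Gbp7 are guanylate-binding proteins, a related family of interferon-inducible GTPases that acts on the same vacuoles.

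Other genes of the pathway were taken from lists. Of 24 further symbols of the IRG and GVIN families, 14 were in the table, 6 passed the filter for YUMM2.1 and 5 for CT26. At naïve 24 h, 4 rose in YUMM2.1 and 4 in CT26 (0.855% and 1.77% of all genes were called higher), and at 3 weeks 3 and 5 did (0.72% and 3.44%), with medians of 3.61 and 4.78 at 3 weeks against 0.00 and 0.01 over all genes. Gm4951 was among those called at both times in both lines. Among the genes of IFNγ signalling, the transcription factor Irf1 rose in both lines at naïve 24 h and at 3 weeks, and Stat2 in CT26. Upon 2 h rechallenge at 3 weeks, Irf1 rose by 2.78 ± 0.19 in YUMM2.1 (adjusted p = 7.56e-15), and in CT26 it differed by 0.46 ± 0.18 (adjusted p = 0.575). The difference between lines was −2.30 ± 0.26 for Irf1 (adjusted p = 6.41e-09).

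Of the guanylate-binding proteins, 7 of 9 tested rose in YUMM2.1 and 7 of 10 in CT26 at naïve 24 h, and 7 and 8 at 3 weeks, beside the same 0.855%, 1.77%, 0.72% and 3.44% of all genes. The autophagy conjugation genes, whose products help to load the effectors onto vacuoles, were tested for 10 members in YUMM2.1 and 9 in CT26, and 0 were called by edgeR at naïve 24 h or at 3 weeks in either line, with 1 at an unadjusted p below 0.05 in YUMM2.1 at naïve 24 h and 0 in the other 3 comparisons. With 0.72% to 3.44% of all genes called higher in these comparisons, a count of 0 is near the background. Elsewhere in CT26, 2 of the 9 were called higher at 2 h in 3-week cells against naïve cells (4.29% of all genes). At 24 h it was 1 (0.481%), and between 0-week and 3-week controls 1 (0.564%). Their median difference at 3 weeks was −0.01 in YUMM2.1 and 0.24 in CT26. Among 4 tested genes for ubiquitin and adaptors at vacuoles, Trim21, a ubiquitin ligase, rose at naïve 24 h in both lines. At 3 weeks it differed by 2.66 ± 0.44 in CT26 (adjusted p = 3.38e-05) and by 2.95 ± 1.03 in YUMM2.1, where it missed the threshold (adjusted p = 0.224).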

How the data were processed

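Transcripts of 90 samples, 45 per line in 15 groups of 3, were counted by 3′ digital gene expression. The deposited values were raw counts per gene and sample, made by the authors with Salmon 0.13.1 against mm10 (submitters' processing notes) and gathered with tximport. The annotation release and any use of molecular identifiers were not given in the sources used here. Of 53697 gene identifiers, 53668 were matched to a symbol. The study discarded outlier samples, most of them of CT26, before its downstream analyses, without naming them. All 90 were therefore kept, and the levels given here may include those outliers. Of the columns of per-sample values, 0 went unused.

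Counts were fitted with edgeR 4.0.16 (limma 3.58.1, R 4.3.3, quasi-likelihood test) after filterByExpr by group and TMM scaling, with all 15 groups of a line in 1 fit. Differences between lines were fitted over all 90 samples and 10339 genes and coded CT26 minus YUMM2.1. p-values were adjusted by Benjamini-Hochberg over all genes tested, with a threshold of 0.05. CPM are counts scaled to the TMM-adjusted library total, and figures and tables were made with Python 3.11.15. A fold against a group with 0 reads was bounded at 3 reads over the group. These limits cover counting error only, and depth set the smallest change that could be seen in the scarce genes. Scripts were tested on simulated data.

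The members and the gene lists were chosen with earlier results of these data known. All 10 members were named, with the 5 other genes per line that correlated best with them over the 15 group means of log2 CPM (prior count of 2), and from each list at most 4 genes called at naïve 24 h or 3 weeks. Alternatives were DESeq2 1.42.0, scaling by library totals alone, only the compared groups in the fit, keeping genes with low counts, replicate number as a block, each replicate number left out, samples below 25% of the median depth left out, and near-identical copies summed. Promoter windows came from RefSeq (GRCm38.p6). Some genes of these lists are not reported here.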

Additional observations from a re-analysis of the deposited data

Results flagged for a closer look

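The values here were picked out because the same contrast gave different results in 2 groups by a test of the difference itself (edgeR quasi-likelihood test, adjusted p below 0.05). They are log2 differences and no explanation was tested.

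The response to rechallenge at 3 weeks minus the naïve response was negative in each case picked out. In YUMM2.1 at 2 h it was −2.73 for Iigp1, −2.29 for Igtp, −1.50 for Irgm1 and −3.02 for Irgm2. In YUMM2.1 at 24 h it was −7.43 for Iigp1, −5.43 for Igtp, −3.16 for Irgm1, −4.97 for Irgm2, −5.14 for Tgtp1, −5.29 for Tgtp2, −5.40 for Ifi47, −6.19 for Gm12250 and −5.85 for F830016B08Rik. In CT26 at 2 h it was −2.21 for Iigp1, −2.56 for Igtp, −1.99 for Irgm1, −2.76 for Irgm2, −5.34 for Tgtp1, −2.22 for Tgtp2, −1.97 for Ifi47 and −4.06 for F830016B08Rik. In CT26 at 24 h it was −5.40 for Iigp1, −3.92 for Igtp, −2.60 for Irgm1, −3.41 for Irgm2, −7.82 for Tgtp1, −4.28 for Tgtp2, −3.39 for Ifi47, −6.52 for F830016B08Rik and −5.61 for Gm4070. The values of Tgtp1 and Tgtp2 are uncertain singly, because the genes share their reads, and those of Gm12250 and F830016B08Rik rest on controls with 1 or 2 reads. Gm4070 in CT26 started from a mean of 1.41 CPM in naïve controls. Each of these differences subtracts the naïve rise, which was in view when the genes were listed. Their negative sign is therefore a description and not a finding.

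Between the lines, the 2 h rise upon rechallenge at 3 weeks was smaller in CT26, by −1.79 for Iigp1, −1.63 for Igtp, −1.14 for Irgm1, −1.77 for Ifi47 and −4.08 for Gm12250. The change from 2 to 3 weeks without rechallenge was more positive in CT26, by 2.58 for Iigp1, 2.23 for Igtp, 1.33 for Irgm1, 1.78 for Irgm2, 1.94 for Ifi47, 4.07 for Gm12250 and 2.98 for F830016B08Rik. The value of Gm12250 from 2 to 3 weeks rests on 6 reads in 1 CT26 sample at 2 weeks. Both comparisons were added after the values had been seen.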

How the results depend on the processing

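Over all alternatives, 2617 of 2747 recomputed calls of single genes kept their direction and side of the threshold, 130 lost the call and 0 reversed. Counts of genes called moved by over 1.5 times as follows, and the cause was not tested. With DESeq2 the count was 3 for 3 against 2 weeks in YUMM2.1. In CT26 it was 1 for the 2 h rechallenge at 3 weeks, 2 for 3-week against 0-week controls and 1 for 24 h against 2 h of rechallenge. It was 1 each for the line differences in the naïve 24 h and the 3-week response. Without the filter on low counts it was 5 for 3 against 2 weeks and 2 between controls in YUMM2.1. In CT26 it was 9 for the 2 h rechallenge at 2 weeks, 1 at 3 weeks and 1 for 24 h against 2 h of rechallenge. It was 2, 2 and 8 for the line differences in the naïve 24 h response, the 3-week response and the 2 h rechallenge at 3 weeks. With library totals it was 2 between CT26 controls and 1 each for the line differences in the naïve 24 h and the 3-week response. Without low-depth samples it was 0 for 3 against 2 weeks in YUMM2.1 and 2 between CT26 controls. With only the compared groups it was 0 for 3 against 2 weeks in YUMM2.1 and 1 for the 24 h levels at 3 weeks against naïve in CT26. With Tgtp1 and Tgtp2 summed it was 1 between YUMM2.1 controls. Leaving out each replicate number in turn gave 0 to 1 for 3 against 2 weeks, 2 to 3 for the 24 h levels and 0 to 4 for the 2 h responses in YUMM2.1. In CT26 it gave 3 to 6 for the 2 h rechallenge at 1 week, 0 to 2 for the 24 h levels, 0 to 1 between controls and 4 to 5 for the 2 h responses. For the line differences it gave 0 to 2 (3-week response), 3 to 5 (2 h rechallenge) and 4 to 6 (3 against 2 weeks).

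With a replicate block, 256 of 257 calls were the same and 1 was lost, and all 43 counts stayed within 1.5 times. Same-numbered samples did not deviate together (median correlation 0.000495 in YUMM2.1 and 0.00606 in CT26), so the numbers were not taken as pairs. Library totals moved the median of all genes by over 0.1 in 5 of 43 comparisons, by at most 0.201, and the share of higher calls by over 10 points in 15. They moved 4 of the 30 summed levels of the members, and 13 of 300 group means of single members, by more than 1 SD.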
